A study of Mus musculus with 7 samples.

Results

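The genes described here are 7 that make, remove, carry or sense extracellular adenosine: Nt5e, Entpd1, Adora2a, Adora2b, Ada, Dpp4 and Slc29a1. They were chosen by name, and all 7 were found among the 39179 genes of the authors' deposited table. Messenger RNA was sequenced from regulatory T cells, the Foxp3-expressing T cells that restrain immune responses, sorted as CD4+ TCRb+ CD25hi Foxp3+ cells taken from the lymph nodes of C57BL/6 mice aged 3 weeks. The mutant libraries, called dKO here, came from Id2fl/flId3fl/flFoxp3cre mice (3 libraries), in which a Cre recombinase expressed from Foxp3 deletes Id2 and Id3, the inhibitors of E protein transcription factors. The control libraries came from Id2fl/+Id3fl/+Foxp3cre mice (2 libraries), so the controls carried the same Cre and were themselves heterozygous for the floxed alleles. A further pair, 1 library titled dKO and 1 titled control, was processed apart. Its genotype tags are the reverse of its titles, so these are called the library labelled dKO and the library labelled control. Every direction given for the pair follows the titles and would turn round if the tags were right.

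Regulatory T cells carry a pair of ectoenzymes that work in sequence: CD39, encoded by Entpd1, cuts extracellular ATP and ADP to AMP, and CD73, encoded by Nt5e, cuts AMP to adenosine. Adenosine binds G protein-coupled receptors on T cells and other cells, among them those encoded by Adora2a and Adora2b, which raise cyclic AMP and dampen T cell activation. It is removed by adenosine deaminase, encoded by Ada, which converts it to inosine, and by uptake through the equilibrative nucleoside transporter ENT1, encoded by Slc29a1. CD26, encoded by Dpp4, is a dipeptidyl peptidase of the cell surface that in humans also binds adenosine deaminase.

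Nt5e and Ada are the members that passed the test, in opposite directions, and their promoters are shown because the deleted proteins restrain E proteins, which bind the E-box CANNTG. The sequences are the 250 bases before each annotated start (RefSeq, GRCm38.p6), read 5′ to 3′ on the gene's strand, with each E-box in capitals. That of Nt5e is chr9:88327359-88327608 on the plus strand and that of Ada is chr2:163750240-163750489 on the minus strand.
Nt5e: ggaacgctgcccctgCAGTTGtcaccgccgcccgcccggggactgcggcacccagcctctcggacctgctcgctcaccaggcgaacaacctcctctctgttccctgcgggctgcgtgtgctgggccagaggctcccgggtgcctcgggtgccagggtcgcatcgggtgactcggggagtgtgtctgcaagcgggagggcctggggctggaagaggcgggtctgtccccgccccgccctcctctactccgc
Ada: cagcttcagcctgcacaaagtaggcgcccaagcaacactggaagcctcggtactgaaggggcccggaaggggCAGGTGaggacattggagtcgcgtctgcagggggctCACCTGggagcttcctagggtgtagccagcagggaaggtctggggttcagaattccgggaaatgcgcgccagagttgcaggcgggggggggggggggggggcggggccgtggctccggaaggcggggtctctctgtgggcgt
The Nt5e window held 1 E-box, CAGTTG, with its first base at position -235 from the start. The Ada window held 2, CAGGTG at -178 and CACCTG at -142, which are the same motif read on opposite strands. In the same length before the start, 66.2% of 32851 promoters held CANNTG, 13% held CAGCTG and 17.2% held CAGGTG or CACCTG. The last 3 of these are forms of CANNTG, which reads the same on both strands. Promoters were found for 6 of the 7 genes, with 14 windows in all, since Entpd1 has 2 annotated starts and Slc29a1 has 8. The first Entpd1 window held CAGGTG at -245 directly followed by CAGCTG at -239, the Adora2b window held CAGCTG at -125 and the Dpp4 window CAAGTG at -126. Of the 8 Slc29a1 windows, all but the last held at least 1 E-box. These matches describe letters in a window and not binding.

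The header of the deposited table calls its group columns raw counts, but the values are fractional. Their steps at low values are those of whole reads, each library's divided by its own size factor, averaged over the group, so they are read here as group means of scaled counts, with no SD. The sums over all genes were 3.99e+07 in dKO and 3.90e+07 in control. Id2 and Id3 were taken as the check of the deletion. Id2 had 61.1 scaled counts in dKO and 783 in control (log2 -3.68, adjusted p 1.48e-08 by DESeq) in the authors' deposited table. Id3 missed the threshold there, with 891 scaled counts in dKO and 1376 in control (log2 -0.63, adjusted p 0.209 by DESeq). In the pair, Id2 had 9.69 FPKM in the library labelled dKO and 18.6 FPKM in the library labelled control, while Id3 had 221 and 160 FPKM. Among 8 T cell and regulatory T cell markers, Ctla4 rose and the other 7 missed the threshold, with Foxp3 at 10942 scaled counts in dKO and 13481 in control in the authors' deposited table. Of 35 rows with a p for genes that mark other cell types, 0 rose by the authors' DESeq test (0 at an unadjusted p under 0.05). The 1 that fell was the collagen gene Col1a2, with 25.6 scaled counts in dKO and 108 in control in the authors' deposited table. Among all genes with a p, 3.38% rose and 3.18% fell. Summed over each marker list in that table, B cell genes had 1092 scaled counts in dKO and 1008 in control, most of it from Cd79b (1006 and 894), with Ms4a1 at 1.47 in dKO and 1.76 in control. Stromal and endothelial genes, Col1a2 among them, summed to 4567 and 4906, of which Pecam1, also expressed by T cells, gave 4398 and 4674. Myeloid and dendritic cell genes summed to 185 in dKO and 153 in control, NK cell genes to 191 and 163, CD8 T cell genes to 714 and 680, and erythroid and platelet genes to 8.16 and 10.4. Most of the CD8 sum came from Cd8b1 (687 in dKO and 663 in control), with Cd8a at 26.7 and 16.9. Eomes gave the largest part of the NK sum (119 and 90.7), with Ncr1 at 0.754 and 0.777. The part of these cells in the results below was not tested.

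Of the 7 adenosine genes, 1 fell (Nt5e), 1 rose (Ada) and 5 missed the threshold in the authors' deposited table at an adjusted p under 0.05 by DESeq. Across all 31641 genes with a p, 6.56% were called, 3.18% lower and 3.38% higher in dKO. Where the mean reached 400 scaled counts, 2 of 6 adenosine genes were called, against 14.5% of all 8892 genes at that level. The median log2 ratio of the 6 adenosine genes whose mean reached 10 scaled counts was -0.06, and that of all 15436 such genes was -0.01. Over all 7, with Adora2b included, the median was -0.30. Adora2b alone of the 7 lay below a mean of 10. In bulk samples such as these, fewer cells of a type and less RNA per cell cannot be told apart.

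**Figure D1:**
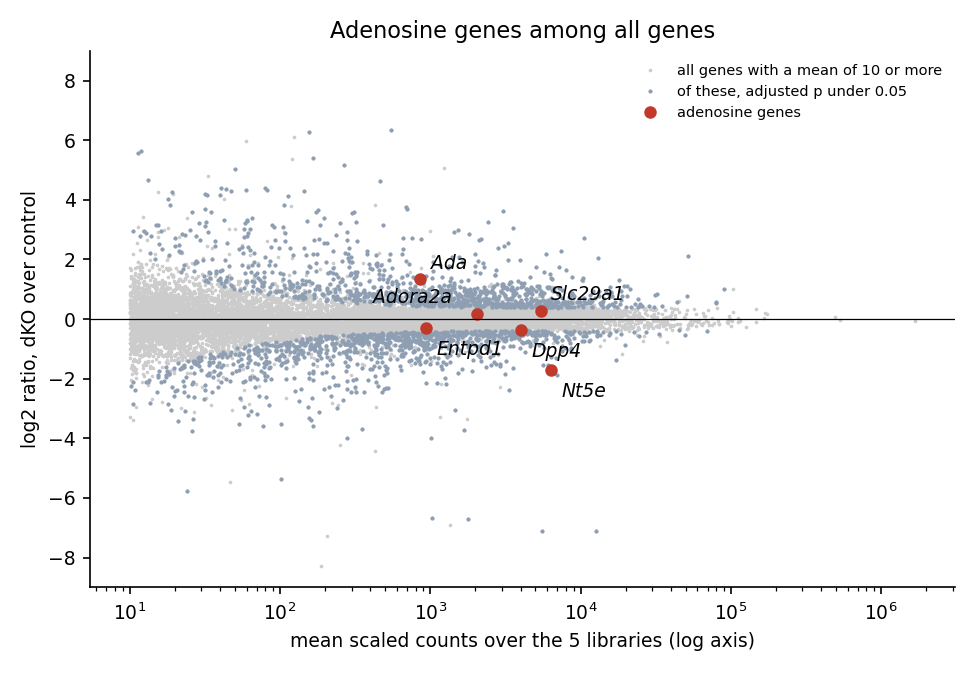
Log2 ratio of dKO over control against the mean over the 5 numbered libraries (log axis) for genes with a mean of 10 or more scaled counts, leaving out genes listed at 0 in 1 group. Red points are the adenosine genes at that level: Nt5e lies at -1.70, Ada at 1.34 and the other 4 between -0.35 and 0.28.

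The mRNA for CD73, the enzyme that makes adenosine, was lower in dKO. Nt5e (ENSMUSG00000032420, chromosome 9, 88327609 to 88372089, plus strand, GRCm38) had 3333 scaled counts in dKO and 10816 in control in the authors' deposited table, so the dKO mean was 30.8% of the control mean. Its log2 ratio was -1.70, with an adjusted p of 8.28e-11 by DESeq in the authors' deposited table. In the pair it had 23.8 FPKM in the library labelled dKO and 59.2 FPKM in the library labelled control, a log2 ratio of -1.28 with a pseudocount of 1 FPKM. Of the 6 adenosine genes with at least 5 FPKM in either library of the pair, Nt5e alone had a log2 ratio of -1 or below and 0 had a ratio of 1 or above, against 3.16% and 2.65% of all 8703 such genes. By the genotype tags in place of the titles, Nt5e would be the 1 gene at 1 or above and 0 would be at -1 or below. The deposited Cuffdiff test of these 2 libraries gave Nt5e a p-value of 0.00365 and a q-value of 0.510, and it compares the libraries, not the conditions. Nt5e overlaps no other gene in the table, and no other gene's transcript matched it over 100 bases or more at 95% identity or above.

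The mRNA for CD39, the enzyme that acts before it, did not pass. Entpd1 (ENSMUSG00000048120, chromosome 19, 40612366 to 40741602, plus strand) had 854 scaled counts in dKO and 1050 in control, with a log2 ratio of -0.30 and an adjusted p of 0.410 by DESeq in the authors' deposited table. The pair gave it 5.95 FPKM in the library labelled dKO and 7.41 FPKM in the library labelled control (log2 -0.28). The pseudogene Gm8783 lies within Entpd1 on the same strand and had 120 scaled counts in dKO and 73.8 in control in the authors' deposited table. The sources used here do not say how reads were assigned between them. Whether the ratios of Nt5e and Entpd1 differ from each other was not tested. Per kb of exon, the Nt5e level was 6.08 times that of Entpd1 in dKO and 16.1 times in control. In the pair, the FPKM of Nt5e was 3.99 times that of Entpd1 in the library labelled dKO and 7.99 times in the library labelled control.

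The mRNA for adenosine deaminase, which removes adenosine, was higher in dKO. Ada (ENSMUSG00000017697, chromosome 2, 163726584 to 163750239, minus strand) had 1133 scaled counts in dKO and 447 in control, a log2 ratio of 1.34 with an adjusted p of 4.52e-16 by DESeq in the authors' deposited table. The control mean was solved as 500 and 551 reads in the 2 control libraries, or 389 and 504 scaled counts, so the dKO mean lay above both. This control mean lies above the range in which single solutions were counted. The reads of single dKO libraries could not be told from the mean, here and for Nt5e, whose control mean also had 14 possible splits. The log2 ratio of Ada against either control library alone was 1.54 or 1.17. The dKO mean of Ada was 2.54 times its control mean. The pair gave Ada 25.0 FPKM in the library labelled dKO and 18.6 FPKM in the library labelled control (log2 0.41), with a Cuffdiff p-value of 0.428 and a q-value of 0.998 between these libraries.

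Set against the mRNA of Ada, that of Nt5e was lower in dKO, which follows from their log2 ratios given above. Per kb of exon, the level of Nt5e was 1.64 times that of Ada in dKO and 13.5 times in control, a change of -3.04 in the log2 of that ratio. In the pair, the FPKM of Nt5e was 0.953 times that of Ada in the library labelled dKO and 3.19 times in the library labelled control. The ratio was lower in dKO in the replicated comparison and lower in the library labelled dKO in the pair. It has no test of its own and joins the members called in opposite directions, so it adds no separate result. Slc29a1 and Adk, which also take up or use adenosine, did not pass and are not part of it.

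Dpp4 lay close to the threshold. Dpp4 (ENSMUSG00000035000, chromosome 2, 62330073 to 62412231, minus strand) had 3638 scaled counts in dKO and 4636 in control, a log2 ratio of -0.35 with an unadjusted p of 0.0066 and an adjusted p of 0.0861 by DESeq in the authors' deposited table. The same DESeq p passed, at 0.0427, when only the 15436 genes averaging 10 or more scaled counts were adjusted together. The pair went the other way, with 25.6 FPKM in the library labelled dKO and 20.8 FPKM in the library labelled control (log2 0.29). An antisense gene, Gm13561, overlaps Dpp4 and shares a stretch of 233 bases with it on the transcript level, and it had 35.7 scaled counts in dKO and 49.9 in control in the authors' deposited table. Among 9 related peptidase genes of the DPP family, Dpp7, a lysosomal dipeptidyl peptidase, fell with 263 scaled counts in dKO and 405 in control (log2 -0.62, adjusted p 0.007 by DESeq), 0 rose (0 at an unadjusted p under 0.05) and 8 missed the threshold in the authors' deposited table. Among all genes, 6.56% were called. The control mean of Dpp7 stood for 428 and 382 scaled counts in the 2 control libraries, both above the dKO mean.

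The transporter gene Slc29a1 (ENSMUSG00000023942, chromosome 17, 45585200 to 45599606, minus strand) had 5837 scaled counts in dKO and 4813 in control, with a log2 ratio of 0.28 and an adjusted p of 0.305 by DESeq in the authors' deposited table. In the pair it summed to 138 FPKM in the library labelled dKO and 88.1 FPKM in the library labelled control, a log2 ratio of 0.64. That sum runs over 5 RefSeq transcripts, of which the highest had 94.3 FPKM in the library labelled dKO and 45.8 FPKM in the library labelled control. Another of the 5 was listed at 0 in the library labelled dKO and had 5.07 FPKM in the library labelled control. The transcripts share a locus, so the split between them rests on how Cuffdiff assigned reads. An antisense gene, Gm17080, overlaps Slc29a1 and shares 187 bases with its transcripts, and it had 34.7 scaled counts in dKO and 22.3 in control in the authors' deposited table. Of 8 other genes for nucleoside transport and nucleotide release, 0 were called by the authors' DESeq test, against 6.56% of all genes. Of the 8, 1 had an unadjusted p under 0.05. That gene was Slc28a2, a concentrative nucleoside transporter, with 8359 scaled counts in dKO and 5981 in control (adjusted p 0.102) in the authors' deposited table, and Panx1, a channel that releases ATP, had 3442 and 2945.

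The adenosine receptor genes did not pass. Adora2a (ENSMUSG00000020178, chromosome 10, 75316943 to 75334788, plus strand) had 2163 scaled counts in dKO and 1901 in control, a log2 ratio of 0.19 with an adjusted p of 0.980 by DESeq in the authors' deposited table. In the pair it had 34.9 FPKM in the library labelled dKO and 32.8 FPKM in the library labelled control. Adora2b (ENSMUSG00000018500, chromosome 11, 62248984 to 62266453, plus strand) was barely detected, with 0, 4 and 2 reads in the 3 dKO libraries and 4 and 3 reads in the 2 control libraries. Its group means were 2.24 scaled counts in dKO and 2.93 in control in the authors' deposited table, a difference not detectable at this depth. The pair listed it at 0.0467 FPKM in the library labelled dKO and at 0 in the library labelled control. Adora3, an inhibitory adenosine receptor gene listed under 2 overlapping identifiers, had 18.8 scaled counts in dKO and 25.9 in control under the more abundant one, in the authors' deposited table. That control mean stood for 49 and 15 reads in the 2 control libraries. Adora1, the other inhibitory receptor gene listed, had 0.717 scaled counts in dKO and 1.69 in control in the authors' deposited table. None of the 3 rows of these receptors was called by DESeq, against 6.56% of all genes, and 0 had an unadjusted p under 0.05.

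Per kb of exon, the order of levels in dKO was Slc29a1 (1456 scaled counts per kb), Nt5e (931), Adora2a (854), Dpp4 (576), Ada (566), Entpd1 (153) and Adora2b (1.21). In control it was Nt5e (3021 scaled counts per kb), Slc29a1 (1201), Adora2a (750), Dpp4 (734), Ada (223), Entpd1 (188) and Adora2b (1.59). In the replicated comparison, Nt5e thus stood below Slc29a1 alone in dKO and below none in control. Its level per kb exceeded that of 82.1% of those 15436 genes in dKO and of 95.2% in control, while Ada stood at 72.6% in dKO and 52.4% in control. Neighbours such as Dpp4 and Ada in dKO or Adora2a and Dpp4 in control were nearly level, and without values per library their order cannot be set against a spread. The order differed in the pair. In the library labelled dKO, Nt5e (23.8 FPKM) lay below Slc29a1 (138), Adora2a (34.9), Dpp4 (25.6) and Ada (25.0). In the library labelled control, Nt5e (59.2 FPKM) lay below Slc29a1 (88.1) only. Of the 8703 genes with at least 5 FPKM in either library, Nt5e exceeded 52.4% in the library labelled dKO and 79.9% in the library labelled control.

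**Figure D2:**
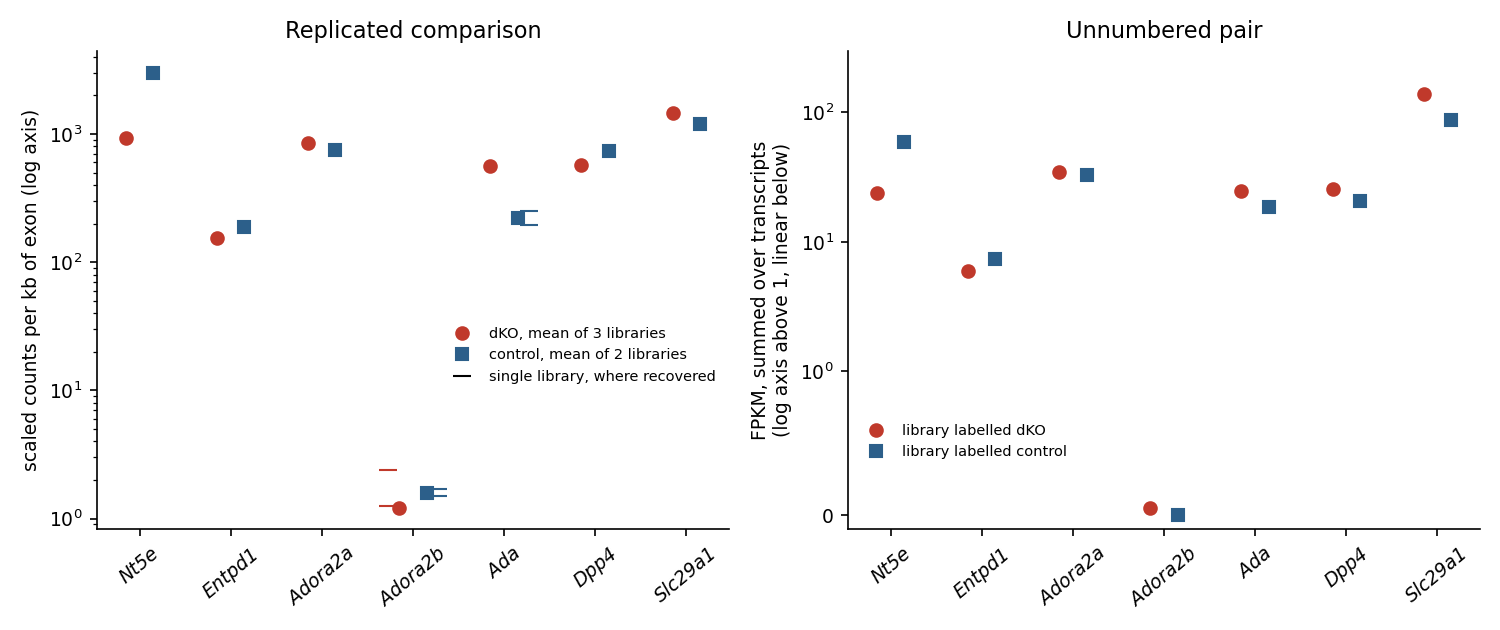
Levels of the 7 genes, dKO left and control right for each: scaled counts per kb of exon (log axis, group means, with dashes for single libraries where reads could be recovered) and FPKM in the pair. Nt5e is at 931 in dKO and 3021 in control, Ada at 566 and 223, and Adora2b lies far below the others; the dKO library with 0 Adora2b reads cannot be drawn on the log axis.

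Among the 6 adenosine genes with 5 or more FPKM in the pair, 5 had by the pair's titles the sign that they had in the replicated comparison, and Dpp4 did not. By the pair's genotype tags, that would be 1 of 6, Dpp4. The share with the same sign among all genes was not taken. The pair shares no library with the replicated comparison, but its values come from another build and another pipeline, and no test of the conditions can be made from 1 library of each label. The ratio of Ada in the pair (log2 0.41) was below that in the replicated comparison (1.34), and that of Slc29a1 was above (0.64 against 0.28).

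**Figure D3:**
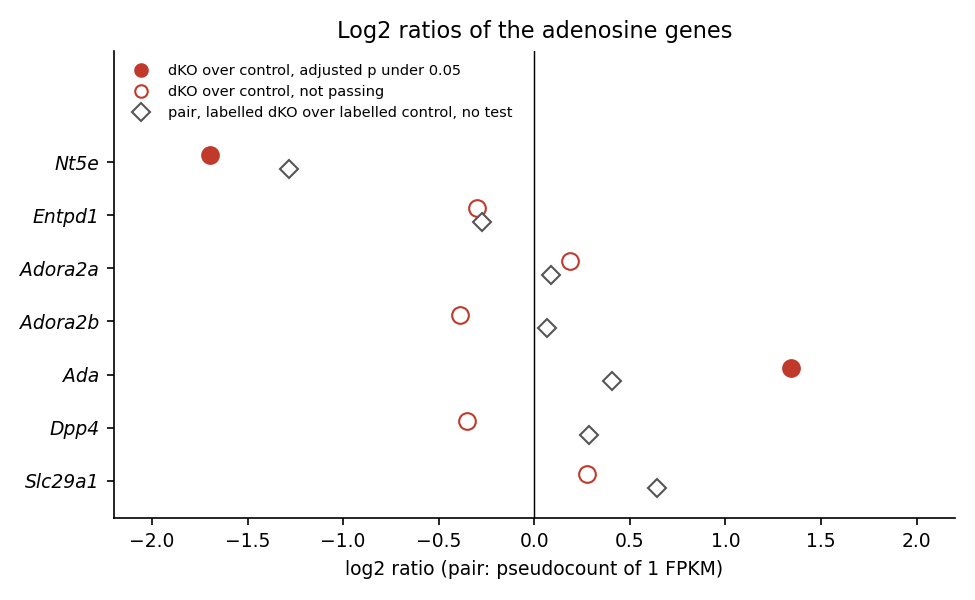
Log2 ratios of the 7 genes, as circles for dKO over control in the authors' deposited table (filled where the adjusted p is under 0.05) and as diamonds for the pair, library labelled dKO over library labelled control with a pseudocount of 1 FPKM. Nt5e is below -1 in both, Ada is above 0 in both, and Dpp4 lies on opposite sides of 0.

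Genes around the adenosine pathway were taken from 7 further lists with 115 symbols. Of their 117 table rows with a p, 4 rose, 10 fell and 103 missed the threshold, so 11.97% were called, against 6.56% of all genes, in the authors' deposited table. Of the 62 with a mean of 400 or more scaled counts, 14.5% were called, the same share as among all genes at that level. Of the 14 called, 13 had the same sign in the pair by its titles, which would be 1 by its genotype tags. That count takes in genes below 5 FPKM in both libraries, such as Pde4a (0.441 FPKM in the library labelled dKO and 1.69 FPKM in the library labelled control). It also takes in pair log2 ratios near 0, such as those of Crem (0.11) and Xdh (-0.11). The share with the same sign among all called genes was not taken.

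A further list held 17 genes for ectoenzymes of nucleotides and NAD and for their relatives. Of these, 1 fell, 0 rose (1 at an unadjusted p under 0.05) and 16 did not pass by DESeq in the authors' deposited table. By the same test, 6.56% of all genes were called. Cd38, an ectoenzyme that consumes NAD, had 280 scaled counts in dKO and 838 in control, a log2 ratio of -1.58 with an adjusted p of 1.74e-17 by DESeq in the authors' deposited table. In the pair it had 2.14 FPKM in the library labelled dKO and 8.39 FPKM in the library labelled control. The genes that overlap Cd38 had at most 2.54 scaled counts in either group of the authors' deposited table.

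Of 14 genes for P2 receptors, which sense extracellular nucleotides, 2 fell, 1 rose and 11 missed the threshold in the authors' deposited table. The share called there was 6.56% of all genes and 14.5% of those with a mean of 400 or more scaled counts. P2rx7, an ATP-gated channel, had 3527 scaled counts in dKO and 5870 in control (log2 -0.73, adjusted p 1.23e-06 by DESeq in the authors' deposited table), and 28.2 FPKM in the library labelled dKO against 55.4 FPKM in the library labelled control. P2rx4, a related channel, had 459 scaled counts in dKO and 695 in control (log2 -0.60, adjusted p 0.0037 by DESeq in the authors' deposited table). Its control mean stood for 669 and 720 scaled counts in the 2 control libraries, both above the dKO mean. P2ry14, a receptor for UDP-glucose, rose to 164 scaled counts in dKO, against 77.4 in control (log2 1.08, adjusted p 0.0004 by DESeq in the authors' deposited table). Its control libraries had 97.2 and 57.7 scaled counts, both below the dKO mean, but P2ry14 lies within Med12l on the opposite strand, and Med12l had 92.9 scaled counts in dKO and 70.3 in control in the authors' deposited table. The sources used here do not say whether reads were counted by strand.

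Inside the cell, 1 of 25 purine salvage and adenosine-handling genes rose, 1 fell and 23 missed the threshold in the authors' deposited table. There, 6.56% of all genes were called. Dck, deoxycytidine kinase, which also phosphorylates deoxyadenosine, a substrate of adenosine deaminase, had 7605 scaled counts in dKO and 3570 in control (log2 1.09, adjusted p 3.34e-07 by DESeq in the authors' deposited table). The pair gave Dck 62.2 FPKM in the library labelled dKO and 35.4 FPKM in the library labelled control. Xdh, which turns hypoxanthine into uric acid, had 675 scaled counts in dKO and 960 in control (log2 -0.51, adjusted p 0.0101 by DESeq in the authors' deposited table). Its pair values were 4.79 FPKM in the library labelled dKO and 5.27 FPKM in the library labelled control. Adk, adenosine kinase, which returns adenosine to AMP, had 2732 scaled counts in dKO and 2536 in control and did not pass (adjusted p 1 by DESeq in the authors' deposited table). It was named beyond the fixed rule, after its value was seen, because it competes with adenosine deaminase for adenosine.

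In the cyclic AMP pathway as a whole, 2 of 41 rows rose, 5 fell and 34 missed the threshold in the authors' deposited table. Beside these stand 6.56% called among all genes and 14.5% among those with a mean of 400 or more scaled counts. The list is not limited to genes that act after the Adora2a receptor. Crem, a cyclic AMP-responsive transcription factor, had 1775 scaled counts in dKO and 741 in control (log2 1.26, adjusted p 3.41e-07 by DESeq in the authors' deposited table), while the pair gave 10.2 FPKM in the library labelled dKO and 9.39 FPKM in the library labelled control. Crem is overlapped on the opposite strand by Gm6225, which had 32.9 scaled counts in dKO and 29.2 in control. Adcy6, an adenylyl cyclase, which makes cyclic AMP, had 1917 scaled counts in dKO and 1124 in control (log2 0.77, adjusted p 4.26e-06 by DESeq in the authors' deposited table). The pair gave Adcy6 13.3 FPKM in the library labelled dKO and 11.7 FPKM in the library labelled control. Adcy3, another adenylyl cyclase, which the deposited table marks as overlapping another gene, fell, with 921 scaled counts in dKO and 1306 in control (log2 -0.50, adjusted p 0.0094 by DESeq in the authors' deposited table). Pde4a, a phosphodiesterase that breaks down cyclic AMP, had 96.8 scaled counts in dKO and 209 in control (log2 -1.11, adjusted p 0.0054 by DESeq in the authors' deposited table), with 175 and 244 in the 2 control libraries. Prkar2b, a regulatory subunit of protein kinase A, had 87.7 scaled counts in dKO and 199 in control (log2 -1.18, adjusted p 0.0056 by DESeq in the authors' deposited table), with 163 and 235 in the 2 control libraries. For both genes the dKO mean lay below both control libraries.

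The genes whose pattern was most like that of Nt5e were found by the distance between log2 ratios in the replicated comparison and in the pair, over 7988 genes with a mean of 100 or more scaled counts and 5 or more FPKM in 1 library of the pair. The nearest 5 were Oas1a (distance 0.0658), Ccr6 (0.109), Mmp11 (0.123), Eno2 (0.124) and Neurl3 (0.125). The distance rests on 4 values per gene, 2 group means and 2 single libraries. Of these, Neurl3 had the highest level after Nt5e, with 1637 scaled counts in dKO and 4873 in control in the authors' deposited table, and 25.0 FPKM in the library labelled dKO and 62.6 FPKM in the library labelled control. Ccr6, a chemokine receptor gene, had 456 scaled counts in dKO and 1554 in control in the authors' deposited table. Mmp11 and Eno2 could be read per control library, with 279 and 387 scaled counts for Mmp11 against a dKO mean of 95.05, and 271 and 298 for Eno2 against a dKO mean of 85.8. The likeness is a description of these values.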

How the data were processed

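RNA of 7 libraries was sequenced. The authors' deposited table of the replicated comparison holds 1 signal column per group (3 dKO or 2 control libraries), the authors' log2 ratio and p-values (raw and adjusted), per the file headers. The header calls the group columns raw counts; that they are means of size-factor scaled counts was read from their fractional steps. Per the submitters' processing notes, RSEM and DESeq were used on mm10 (GRCm38). For the pair, the authors deposited FPKM with Cuffdiff p-values and q-values, per the file headers, made with TopHat 1.4.0 and Cuffdiff given as version 0.0.6 on mm9, per the submitters' processing notes; no coordinates of that build are printed.

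The authors' DESeq adjusted p under 0.05 was used as deposited, since the table holds group means and no count test per library could be run. No label ties a library to an animal of its own, so the p-values rest on a spread that may be technical. Size factors were recovered from the steps of low values: 0.929, 0.910 and 0.860 in dKO and 1.29 and 1.09 in control. Means were solved for whole reads per library within 0.0001. Exactly 1 solution was found for 100% of the 12534 control means from 1 to 100 and of the 1893 from 100 to 380. The control size factors were fitted to control means in this range, so a single solution there does not by itself show that the split is right. The control means of Ada, Dpp7 and P2rx4 had 1 solution each but lie above that range, so their splits were not covered by this count. Only means with 1 solution are given per library, and which numbered sample each library is cannot be told. Read numbers per library are given without an error estimate, and they carry differences between libraries as well as counting error.

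FPKM was summed over a gene's transcripts, 26934 of 27901 entries (96.5%) having a symbol, and 1 FPKM was added before log2 ratios were taken, so changes of low genes are understated. Shared sequence was searched with blastn 2.17.0 in GENCODE M21 transcripts. Members and lists were chosen with earlier results of these data known. Named were all 7 members, Id2 and Id3, up to 4 called genes per list with the smallest adjusted p (otherwise the 2 most abundant), and the 5 genes most like Nt5e; markers named, Adk and Adcy3 were chosen after their values were seen. Alternatives were other adjustment sets, scalings, pseudocounts and single libraries left out.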

Additional observations from a re-analysis of the deposited data

How the results depend on the processing

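The calls of Nt5e and Ada and the missing calls of Entpd1, Adora2a, Adora2b and Slc29a1 held when p was adjusted over genes with a mean of 10 or more or over genes without the overlap mark, wherever the gene was in that set, and all 7 signs held with means scaled by their sum. Dpp4 (log2 -0.35) passed with the first of these (adjusted p 0.0427, DESeq). The count of all genes called was 2075, against 2503 with a mean of 10 or more, 1238 without genes marked as overlapping and 834 with a log2 ratio of at least 1 in size. Without either control library, Ada ranged from 1.17 to 1.54; no dKO library could be left out of its mean. Without each of the 5 libraries in turn, Adora2b, with a log2 ratio of -0.39 on a handful of reads, ranged from -1.33 to 0.20, the sign turning without the dKO library that held 0 reads. In the pair, none of the 7 signs changed with the pseudocount, the transcript taken or centring on the median of all genes, where a value could be had; Slc29a1 stood at 1.02 by its highest transcript and Adora2b at 0.55 with a pseudocount of 0.1 FPKM, against 0.64 and 0.07. No paired analysis was possible because the deposited columns are group means that carry no replicate number, and for the same reason edgeR and DESeq2 were not run. Group means hide the spread between libraries for Nt5e, Entpd1, Adora2a, Dpp4 and Slc29a1, and depth limits Adora2b.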
